A study of Zea mays with 54 samples.

Results

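The maize cystatins described here are 2 genes, cc7 (LOC732754) and cc4 (LOC732753), those on the 3 array designs whose symbol or RefSeq synonym is cc followed by digits. Another 2 cystatin genes on the arrays, without such a symbol, are set beside them further on. They were found through the array annotation and RefSeq synonyms, on 11 of 49280 probes: 3 of cc7 and 8 of cc4. Values were present for 2 probes of cc7 and 6 of cc4, among 37662 probes with values. The 3 cystatin probes of slides 7 to 12 (1 of cc7 and 2 of cc4) carried none. RefSeq lists 6 further cc symbols, cc3, cc5, cc6, cc8, cc9 and cc10, for which no probe was found. cc6 and cc8 lie close to cc7 in the RefSeq gene order, 2 and 3 genes further along the same chromosome.

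Plant cystatins, also called phytocystatins, are small proteins that block cysteine proteases of the papain type by sitting in the active-site cleft of the enzyme, and some also inhibit legumains through an added domain. The enzymes they hold in check break down proteins in vacuoles, seeds, senescing leaves and the space outside the cell, and take part in programmed cell death and defence. In maize the family member cc9 is known as a cystatin that dampens defence by inhibiting papain-like proteases of the leaf.

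The arrays were spotted cDNA slides, and all RNA came from vegetative shoot apical meristems (SAMs) of the inbred line B73, in seedlings 14 days old. L1 is the tunica, the outermost cell layer, which gives rise to the epidermis. L2 in the labels' sense is the corpus, the tissue beneath it. Both were cut from paraffin sections by laser microdissection, with 5 to 10 SAMs pooled per replicate and about 1 ng of RNA amplified. Each of 18 slides (1 to 6, 7 to 12 and 13 to 18 on the first, the second and the third design) compared L1 with L2 RNA directly, with L1 in Cy3 on odd slides and in Cy5 on even slides, and was read 3 times (columns L, M and H, which the labels do not explain). Extracts were numbered, and most numbers recur between designs, and slides of 2 designs may hold the same RNA.

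The deposited values are log ratios, and neither the base nor the dye on top of the ratio is stated by the labels. They are printed as L1 minus L2 in log units, and a difference of 1 would mean 2-fold if the base were 2 and 2.72-fold if it were natural. No level of either layer can be had from them. The sign rests on marker genes and is likely rather than stated. With Cy5 read as the numerator, the epidermal homeobox gene ocl1 had 2 probes at 0.90 and 1.00 on the first design, 1 at 0.93 on the second and 1 at 1.00 on the third. kn1, the homeobox gene of meristem cells, had probes at -1.26, -0.72 and -0.37 on the first design, at -1.72 and -0.27 on the second and at -1.56, -0.26 and 0.02 on the third. Another epidermal homeobox gene, ocl4, had probes at 2.12 and 0.18 on the first design and 2.65 on the second. Some markers of these lists lay near 0 or had the other sign: the second kn1 probe on slides 7 to 12 and both weaker ones on slides 13 to 18 were not called (limma, adjusted p = 0.304, 0.311 and 0.889). For ocl3, a further gene of the ocl family, 1 probe was at 0.80 and 1 at -0.15 on the second design, and cr4, a receptor kinase of the epidermis, was at 0.14 there and -0.11 on the third. Leaf primordium markers had list medians of 0.49, 0.50 and 0.43 (ranges -0.36 to 0.66, -0.20 to 2.12 and -0.32 to 1.94), with rs2 the member below 0 on each design, and their part in the cystatin values was not tested. Because each slide compares pooled tissue, fewer cells holding a transcript and less transcript per cell cannot be told apart.

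The cc7 probe of slides 1 to 6 (probe 5125) was lower in L1 on all 6 slides, at 1.28 log units below 0. cc7 was chosen for its value on these slides, so they are a description with no test. With L1 in Cy5, cc7 stood at -1.23 (slide 2), -2.002 (slide 4) and -1.36 (slide 6). With L1 in Cy3, it stood at -1.68 (slide 1), -0.85 (slide 3) and -0.55 (slide 5). The values of the 2 dye orientations overlapped, with means of -1.53 for L1 in Cy5 and -1.03 for L1 in Cy3, so cc7 was on the L2 side whichever dye the L1 carried. Dye effects were common on this design: limma called the dye term, a difference between the orientations, on 415 of 14401 probes. It was called on 1 probe of slides 7 to 12 and 0 of slides 13 to 18. Over the 6 slides the mean was -1.28 ± 0.53 (SD, n = 6), that is 2.42-fold lower in L1 if the base is 2 and 3.59-fold lower if it is natural. cc7 ranked 8 from the bottom of 14401 probes, of which limma called 1.34% lower in L1 and 4.18% were lower on all 6 slides.

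The 3 readings of a slide differed more for cc7 on slides 1 to 6 than for cc4. Slide 4 read -2.65, -1.54 and -1.82 under L, M and H, an SD of 0.58, and slide 6 read -1.78, -0.92 and -1.37, an SD of 0.43. On the other 4 slides the SD of the readings was between 0.16 and 0.26. Every one of the 18 readings was below 0, the nearest at -0.37 (slide 5, M). The median SD between readings was 0.22 for this cc7 probe and between 0.04 and 0.10 for the 4 cc4 probes of the same slides.

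**Figure D1:**
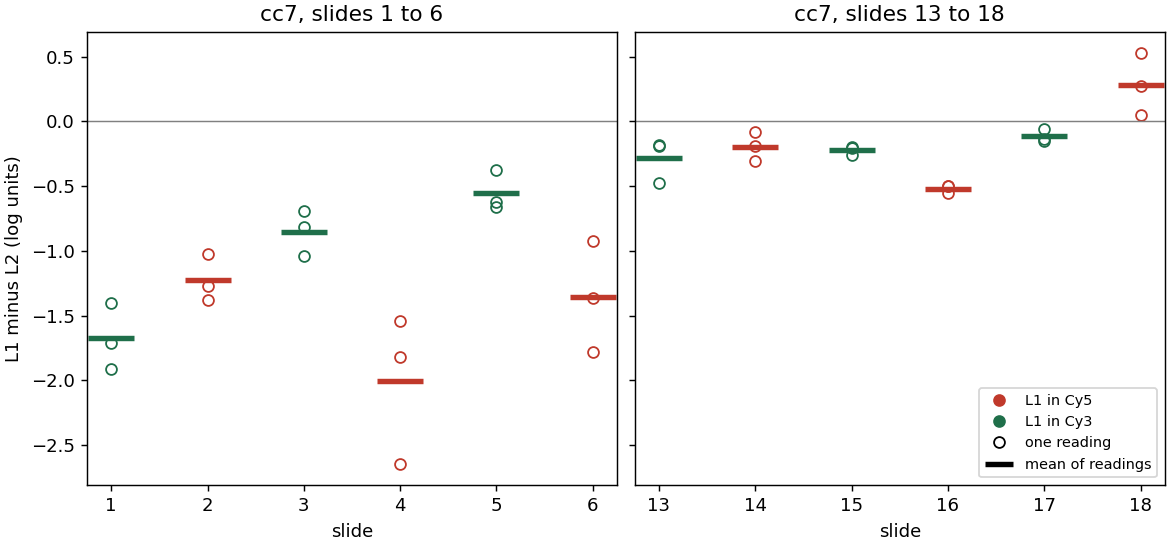
L1 minus L2 of cc7 in log units (vertical axis) by slide, on slides 1 to 6 (left) and slides 13 to 18 (right), with 3 open circles for the L, M and H readings of a slide and a bar for their mean, coloured by the dye of the L1. All readings of slides 1 to 6 lie below 0, between -2.65 and -0.37, while the slide means on the right lie between -0.52 and 0.28.

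Slides 13 to 18 carried the same expressed sequence tag (EST) clone of cc7, by its accession in the array annotation, and there the difference was much smaller and was not called. This probe (4809) was at -0.20, -0.52 and 0.28 on slides 14, 16 and 18, where L1 carried Cy5. It was at -0.28, -0.22 and -0.12 on slides 13, 15 and 17, where L1 carried Cy3. cc7 was thus below 0 on 5 of 6 slides and above 0 on slide 18. The mean was -0.18 ± 0.26 (SD, n = 6), with a standard error of 0.099 and a 95% confidence interval of -0.41 to 0.06 (limma, adjusted p = 0.513 over all probes of the design). Without slide 18 the value was -0.28 with an adjusted p of 0.109, still not called by limma, and without slide 16 it was -0.08 (adjusted p = 0.738).

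Extracts 2, 3 and 4 were hybridised on both designs, with the same L1 and L2 numbers, so cc7 can be set side by side by extract number. Over 382 genes, r between the slides of these 3 pairs was 0.354 to 0.487. For 13 pairs of like dye orientation with no number in common it was -0.009 to 0.396. These ranges overlap. Slides 1 and 13, which share the L1 number alone, had r = 0.561, and slides 5 and 17, which do so too, 0.252. Whether equal numbers mean the same RNA is thus not settled. For extract 2 cc7 was at -1.23 on slide 2 and -0.20 on slide 14. For extract 3 it was at -0.85 on slide 3 and -0.22 on slide 15. For extract 4 it was at -2.002 on slide 4 and -0.52 on slide 16. In each of these 3 extracts the value of slides 1 to 6 was the lower, with gaps of -1.03, -0.63 and -1.48 log units (slides 1 to 6 minus slides 13 to 18), and extract 4 gave the lowest value of both designs.

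Across the 152 clones with a single annotated gene whose accession is found on both of these designs, cc7 had the largest gap between them. The gap was -1.10 log units for cc7 (slides 1 to 6 minus slides 13 to 18), against a median size of 0.10 and a 90th percentile of 0.32 over all 152. The clones next in size were Lsi6 (LOC542497), a silicon channel, at 1.02 on slides 1 to 6 and 0.08 on the third design, and a clone of LOC542581 (EF1-A, an elongation factor) at 1.43 and 0.60. With cc7, 6 of the 152 clones were lower in L1 by over 0.5 log units on slides 1 to 6. Of the other 5, rf2c (LOC541913), an aldehyde dehydrogenase, was at -1.24 on the first design and -0.64 on the third, a gap that ranked 6 in size. The aquaporin PIP1-1 (LOC542434) had 1 clone at -1.08 on both and 1 at -0.80 and -0.55. LOC606477 was at -0.90 on the first and -0.77 on the third, and M8 at -0.53 and -0.37. cc7 was the lowest of the 152 clones on slides 1 to 6 and ranked 25 from the bottom on slides 13 to 18. The gap was not tested, because cc7 was picked for one of its values, and its cause was not tested either.

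**Figure D2:**
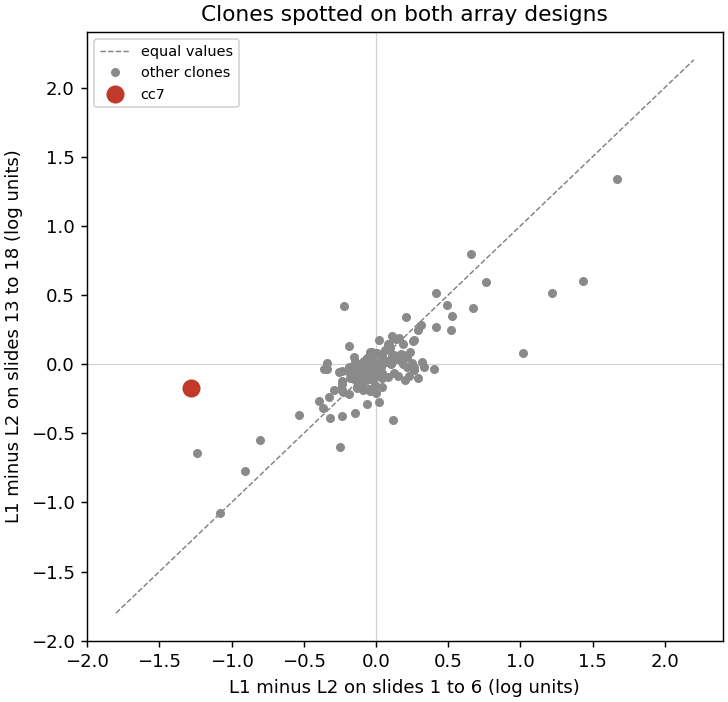
L1 minus L2 in log units of 152 clones spotted on both array designs, with slides 1 to 6 on the horizontal axis, slides 13 to 18 on the vertical axis and a dashed line where both are equal. cc7 (large red point) lies farthest from the line, at -1.28 horizontally and -0.18 vertically.

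The other cystatin, cc4, had small differences, most of them below 0, and was not called on any of its 6 measured probes. On slides 1 to 6 limma called 0 of 4 cc4 probes (0 at an unadjusted p under 0.05), where 2.84% of all probes were called and 14.8% had such a p. On slides 13 to 18 it called 0 of 2 (0 at an unadjusted p under 0.05), where 1.57% of all were called and 12.9% had such a p. With so few probes, these counts are near the background and are no result about cc4. The differences ran between -0.19 and 0.01, with a median of -0.15, while the median over all probes was -0.00175 on slides 1 to 6 and 0.000250 on the third design. The largest in size, probe 11626, was at -0.19 ± 0.093 (standard error, n = 6 slides), with a 95% interval of -0.39 to 0.02 (limma, adjusted p = 0.401). Probe 6117, the nearest to 0, was at 0.01 ± 0.086 with an interval of -0.19 to 0.20 (limma, adjusted p = 0.985). The lowest bound of the 6 intervals for cc4 was -0.39.

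Although its mean was small, cc4 varied between slides in a like manner on most of its probes. On slide 4 the probes 9721, 10127 and 11626 were at -0.54, -0.50 and -0.67, and on slide 2 at -0.37, -0.59 and -0.43. Slide 1 had the same 3 probes at 0.10, 0.32 and 0.20, so slides 2 and 4 lay apart from slide 1 on each of them. Slides 3, 5 and 6 had values from -0.18 to 0.13. Any 2 of these 3 probes differed over the 6 slides by a root mean square of only 0.114 to 0.160 log units. Probe 6117 did not follow them: it was at 0.20 on slide 2, -0.01 on slide 4 and -0.26 on slide 6, and differed from each by 0.365 to 0.417.

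Among slides 13 to 18 the cc4 probes 11375 and 13232 were again lowest for extract 4, at -0.58 and -0.51 on slide 16. Slide 13, with L1 extract 1, had them at 0.20 and 0.12, and slide 14, with extract 2, at -0.25 and -0.30. The pair was at -0.18 and -0.22 on slide 15 and at -0.10 and -0.20 on slide 17, and parted on slide 18, at -0.07 and 0.27. Extracts 2 and 4 were hybridised with L1 in Cy5 and extract 1 with L1 in Cy3 on both designs, so extract and dye cannot be told apart here.

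**Figure D3:**
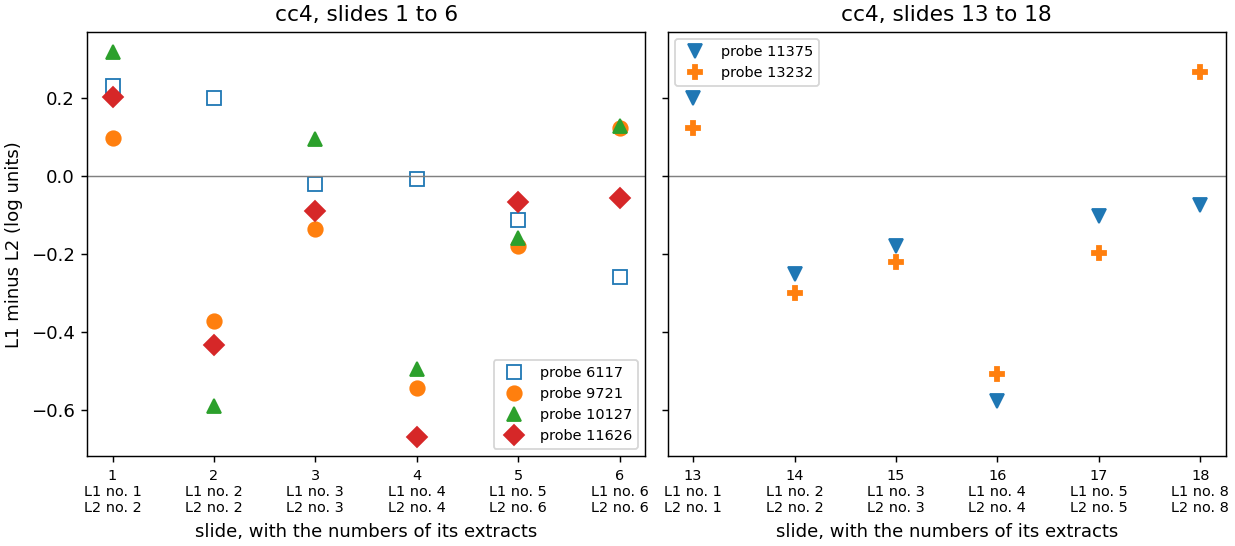
L1 minus L2 in log units (vertical axis) of each cc4 probe by slide, on slides 1 to 6 (left) and slides 13 to 18 (right), with the numbers of the L1 and L2 extracts under each slide and one symbol per probe. All probes but 6117 (open squares, -0.01) lie between -0.67 and -0.50 log units at extract 4.

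Extract 4 was the low point for cc7 and for most cc4 probes. Its slide gave the lowest value for 2 of 2 cc7 probes and 4 of 6 cc4 probes. The exceptions were probe 10127, lowest on slide 2, and probe 6117, lowest on slide 6. Over all probes, 18.8% were lowest on slide 4 and 17.3% on slide 16, where 6 slides were compared in each design. Slide 16 was also the lowest for LOC100101525 probe 10838, LOC542213 probe 976 and ccp1 probe 2981, genes taken up below. Of the other cystatin and cysteine protease probes, see2b apart, 3 of 18 were lowest with extract 4. All probes of a design were read on the same slide of extract 4, always with L1 in Cy5. On slides 13 to 18 the cc7 profile differed from that of cc4 by a root mean square of 0.175 for probe 13232 and 0.248 for probe 11375, where the median over 579 genes was 0.315. The same measure on slides 1 to 6 was 1.19 to 1.40 for the 4 cc4 probes, where the median over 548 genes was 1.33. There the measure depends mostly on the low mean for which cc7 was chosen, so it cannot tell whether the 2 genes were alike. The 2 genes are spotted cDNA clones of one family, and how far they cross-hybridise was not tested.

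The cystatins without a cc symbol had differences close to 0. These are LOC100101525, listed in RefSeq as cystatin II, on 8 probes over all designs, and LOC542213, listed as cystatin-1, on 3 probes of slides 1 to 6 and 13 to 18. limma called 0 of these 11 probes (1 at an unadjusted p under 0.05), where 1.43% to 2.84% of all probes of a design were called and 12.9% to 14.8% had such a p. Their differences ran from -0.20 to 0.05 with a median of -0.04. The lowest was LOC100101525 probe 12299 on slides 7 to 12, which ranged from -0.33 through a median of -0.17 to -0.08 over 6 slides (-0.20 ± 0.062, standard error; limma, adjusted p = 0.242). It was below 0 on 6 of 6 slides, as were 5.47% of all probes of that design. On slides 1 to 6 the largest in size was LOC100101525 probe 11154 at -0.19 ± 0.085 (limma, adjusted p = 0.349), whose clone was at -0.02 on slides 13 to 18. The largest on slides 13 to 18 was LOC542213 probe 12892 at 0.03 ± 0.072 (limma, adjusted p = 0.901).

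Cysteine proteases, the enzymes on the other side of this inhibition, were represented by ccp1, mir3 and see2b, and none of their 9 measured probes was called. The value farthest from 0 was that of see2b, a legumain-type vacuolar protease of the senescence-enhanced genes, which was measured on slides 7 to 12 alone. Its probe 3100 ranged from -1.14 through a median of -0.43 to -0.09 over the 6 slides, and its probe 4305 from -1.04 through -0.36 to -0.20. see2b was below 0 on 6 of 6 slides with both probes, as were 5.47% of all probes of that design. The 2 probes are of the same gene on the same slides. Slide 10, which holds extract 4, was the lowest in each case, as it was for 11.3% of all probes of that design. The means were -0.48 ± 0.099 and -0.48 ± 0.091 (standard error, n = 6 slides), with adjusted p = 0.0874 and 0.0657 by limma, so neither passed the threshold of 0.05. With the median of the 3 readings in place of their mean, probe 4305 passed (-0.51, adjusted p = 0.0455, range over its alternatives 0.0455 to 0.334). see2b was lower with L1 in Cy5, at -0.74 and -0.70, than with L1 in Cy3, at -0.22 and -0.25. The dye term was not called on either probe (limma, adjusted p = 0.614 for both), and each dye went with its own extracts.

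The papain-type enzymes gave smaller values with no common sign. ccp1, a papain-type cysteine protease, was at -0.01 and 0.05 on slides 1 to 6 and at 0.00 on slides 13 to 18 (limma, adjusted p between 0.847 and 0.998). mir3, a papain-like protease of the mir family, was at -0.18 and 0.16 on slides 7 to 12 and at 0.10 on slides 13 to 18. A probe that the array annotation alone names mir3 was at -0.11 on slides 1 to 6. None of the mir3 probes was called (limma, adjusted p between 0.384 and 0.731). On slides 7 to 12, limma called 0 of 4 cysteine protease probes (2 at an unadjusted p under 0.05, both see2b), where 1.43% of all probes were called and 13.8% had such a p.

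An inhibitor of another class, wip1, a wound-induced inhibitor of the Bowman-Birk type that acts on serine proteases, was also measured. The second design held wip1 on 3 probes, with differences of 0.17, 0.03 and -0.02, and limma called 0 of 3 (0 at an unadjusted p under 0.05; adjusted p between 0.487 and 0.937). In all, 0 of 23 measured probes in these 3 lists were called, 3 had an unadjusted p under 0.05, and the median was -0.02. Set against the same shares over all probes (1.43% to 2.84% and 12.9% to 14.8%), these counts are near the background and are no result about the lists.

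**Figure D4:**
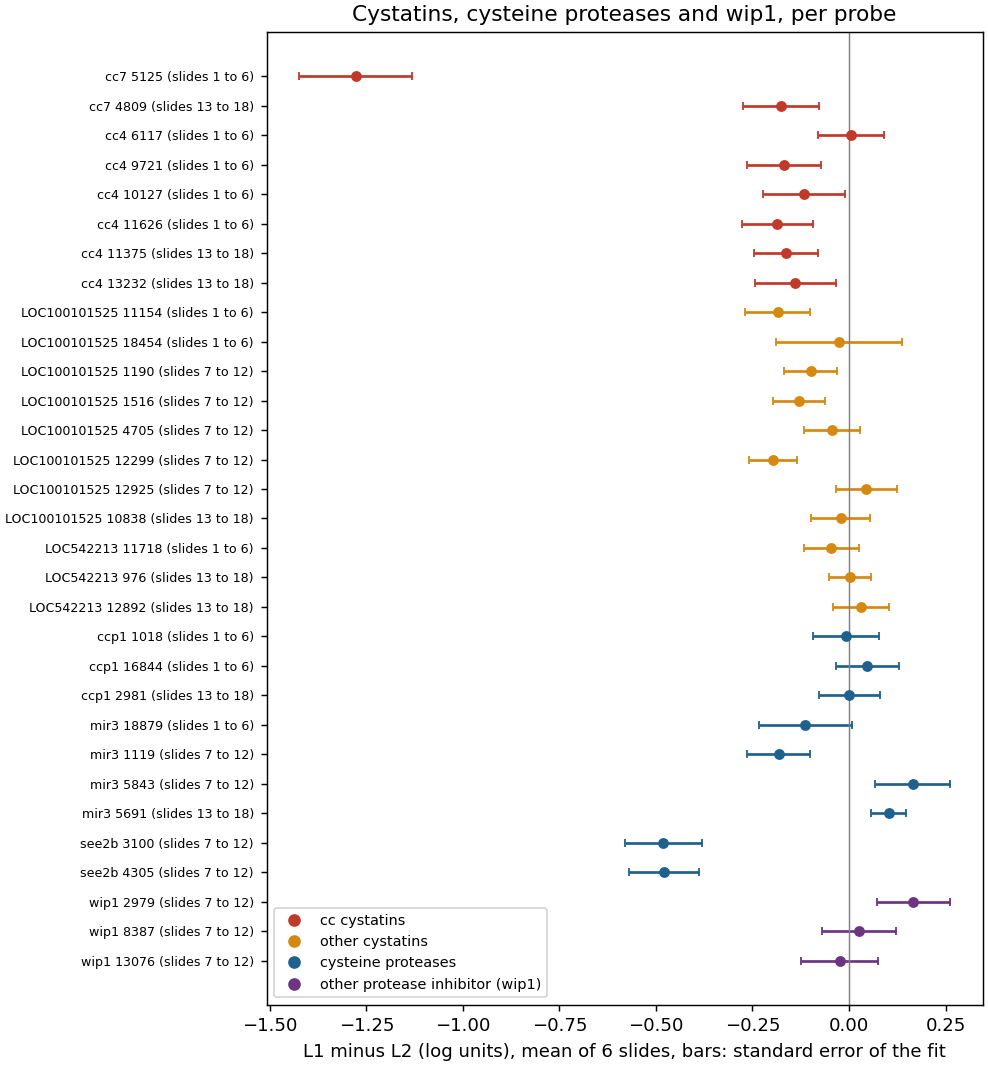
L1 minus L2 in log units (horizontal axis; point, mean of 6 slides; bar, standard error of the limma fit) for each measured probe of the cc cystatins, the other cystatins, the cysteine proteases and wip1, with the probe number and slides on the vertical axis. cc7 on slides 1 to 6 is at -1.28, the see2b probes are both at -0.48, and all other probes lie between -0.20 and 0.17.

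The genes whose 6 slide values on slides 1 to 6 were nearest to those of cc7 were compared by the root mean square difference over 548 annotated genes, 1 probe each, whose median was 1.33 log units. In order they were LOC542737 (AGP2 in RefSeq), rf2c (LOC541913), kn1, LOC606477 and RR6 (LOC541632). Their distances were 0.412, 0.462, 0.518, 0.525 and 0.577, and their own differences were -1.23, -1.24, -1.26, -0.90 and -1.27. cc7 was chosen for these slide values, and the measure depends strongly on the mean, so genes with a like mean come nearest by construction. A shared pattern over the slides was not tested. kn1 is the meristem homeobox gene that also served to set the sign of the ratios, rf2c an aldehyde dehydrogenase and RR6 a cytokinin response regulator. The slide values of cc7 spread more widely than theirs: they covered -2.002 to -0.55, while those of LOC542737 covered -1.46 to -1.08 and those of kn1 -1.78 to -1.01.

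For cc7 on slides 13 to 18 the nearest of 579 genes were adh1 (LOC542363), HRGP (LOC542371), LOC542233 (an NADP-malic enzyme), LOC542463 (a CCR gene in RefSeq) and fdh1 (LOC542459), at 0.119 to 0.139 against a median of 0.315. Their own differences were -0.18, -0.11, -0.10, -0.10 and -0.13, and none was called (limma, adjusted p between 0.373 and 0.650).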

How the data were processed

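The deposited tables hold, per the labels' dye notes and from the values, 1 log ratio per probe and reading (54 columns, 18 slides). For the authors' normalisation, the base of the logarithm and the numerator dye, no statement was found in the labels or files, and the design written for log2 values was kept for log ratios of unknown base. Values were turned to L1 minus L2 by dye orientation, and the L, M and H columns of a slide averaged. limma 3.58.1 in R 4.3.3 fitted a layer and a dye term per probe for each array design (4 residual degrees of freedom), with Benjamini-Hochberg adjustment over all 14401, 8991 or 14270 probes and a call at an adjusted p under 0.05. The fit was also run on data simulated with its own variances and independent slides. That run could not test the effect of shared extracts or of the separate readings. The number of slides, 6 per design, limits the precision. p-values measure the spread between slides, some of which share an L2 extract number. The median r between slides of like dye orientation was 0.45, 0.27 and 0.27, and that between opposite orientations, as deposited, 0.03, -0.16 and -0.16.

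The members, lists and tests were chosen with earlier results of these data known. Named were all cc probes, every called probe of each list other than the markers or else its largest difference per design, and the 5 genes nearest to cc7. Of the marker lists only ocl1, ocl4 and kn1 were named in full, and some called probes of other markers were left out. see2b probe 4305, the other ccp1, mir3 and wip1 probes and the clones set beside cc7 were named after their values were seen. Lists were matched on symbols and RefSeq synonyms, since no descriptions were given. A single gene found in RefSeq (Zm-B73-REFERENCE-NAM-5.0, used for names and gene order only) was available for 1488, 849 and 1100 probes. No sequence was at hand. Alternatives were single readings, their median, no dye term, 3 rescalings, a robust prior, the L2 extract as a block and each slide left out. Figures used Python 3.11.15 and matplotlib 3.10.9.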

Additional observations from a re-analysis of the deposited data

Results flagged for a closer look

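A search for slides far from the rest covered 27 of the named probes. These were the cc probes, the called ocl1, ocl4 and kn1 probes, see2b and the largest difference of each non-marker list per design. Other named probes were not searched, such as ocl3 probe 3789, at 0.57 on slide 7 with the nearest value at -0.08. Of the 27 probes, 1 had a slide that lay far from the other 5, with a gap above Dixon's 95% critical value. kn1 probe 11267 was at -0.15 on slide 6, with the nearest value at -0.35. Chance alone gives such a slide in about 1 of 20 groups. No cc7 or cc4 probe had one, slide 18 of cc7 included.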

How the results depend on the processing

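Counts of called probes moved most. On slides 1 to 6 they were 409 (216 higher and 193 lower in L1), but 577 (282 higher and 295 lower) with the L2 extract as a random block, 261 with the L reading alone, 258 without a dye term, 78 without slides 1 and 5, and 211 (without slide 2) to 417 with single slides left out. Slides 7 to 12 gave 129, but 82 with L alone, 76 with H alone, 80 with slides scaled to one median absolute deviation, and 38 (without slide 10) to 65 with single slides left out. Slides 13 to 18 gave 224, but 79 with L alone and 88 (without slide 15) to 231 with single slides left out. cc7 on slides 1 to 6 stayed between -1.47 and -1.11 under 17 alternatives. On slides 13 to 18 cc7 stayed between -0.28 and -0.08 under 15, none called (limma, adjusted p from 0.109 to 0.738).

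cc4 probe 6117 changed sign with H alone (-0.0288), with the median of the readings (-0.0114), without slides 1 and 5 (-0.0210), and ranged from -0.0503 to 0.0649 with single slides left out. The other cc4 probes kept their sign but not their size when single slides were left out: 9721 ranged from -0.27 (without slide 6) to -0.10 (without slide 4), 10127 from -0.23 (without slide 6) to -0.05 (without slide 2), 11626 from -0.27 (without slide 6) to -0.11 (without slide 4), 11375 from -0.22 (without slide 13) to -0.09 (without slide 16) and 13232 from -0.25 (without slide 18) to -0.06 (without slide 16), none called. LOC542213 probe 12892 ranged from -0.0398 to 0.0740 in that way. mir3 probe 18879 was at 0.13 with L alone. kn1 probe 11267 lost its call under 8 alternatives and kn1 probe 4915 under 1. The cause was not tested. Each value already compares L1 with L2 on the same slide. Slides of opposite dye orientation could not be paired with each other, because no replicate number is shared between the orientations. Slides 1 and 2, and 5 and 6, share an L2 extract number. The block above modelled this with a consensus correlation of -0.207, which is negative, so it did not make the calls stricter for shared RNA.

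If the ratios are Cy3 over Cy5, every sign turns. cc7 would be at 1.28 and 0.18, cc4 at -0.00536, 0.17, 0.12 and 0.19 on slides 1 to 6 and at 0.16 and 0.14 on slides 13 to 18. LOC100101525 would be at 0.19 and 0.20, LOC542213 at -0.0315, mir3 at 0.11 and -0.10, see2b at 0.48 on both probes and wip1 at -0.17. ocl1 would then be at -0.90, -1.001, -0.93 and -0.998, ocl4 at -2.12 and -2.65, and kn1 at 0.72, 1.26, 0.37, 1.72 and 1.56.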
